A study of Mus musculus with 9 samples.

Results

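Kinesins are motor proteins that walk along microtubules, and the genes described here are those of the kinesin family in neurons of the mouse paraventricular hypothalamus (PVH), a nucleus that directs endocrine and autonomic output. The rule took every gene whose symbol is Kif followed by a digit, together with the light chain genes Klc1 to Klc4, and left out 2 pseudogenes. It gave 44 of the 54838 genes in the count table. Of these, 38 are heavy chain genes of the kinesin family and 4 encode light chains, which link conventional kinesin to its cargo. Kif1bp encodes a protein that binds kinesins and is not a motor, and Kif16bos is an antisense transcript at the Kif16b locus.

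The study cut labelled brain neurons from tissue by laser-capture microdissection, in which chosen cells are collected under a microscope, and sequenced their RNA from its 3′ ends with the Smart-3SEQ method. The labels name 3 groups of 3 libraries: overlap, cfos (after the protein of the activity gene Fos) and mCherry (a red fluorescent protein). The series sets a CRD label, a VFF label and their combination against each other, and does not say which marker stands for which. The sources used here give no genotype, strain, age, treatment time or animal behind a library, so the p-values measure only the spread between libraries, which may be technical. The total counts were 504785 to 597898 in overlap, 700556 to 3414593 in cfos and 877257 to 978877 in mCherry.

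Not all libraries were independent, and cfos 1 stood apart from cfos 2 and cfos 3. No gene had more counts in cfos 2 than in cfos 3, and the pair differed by less than sampling noise. Their rounded mean therefore served as 1 sample, although the labels call them separate biological replicates. This left overlap n = 3, cfos n = 2 and mCherry n = 3. Nor did any gene have more counts in mCherry 2 than in mCherry 1 plus mCherry 3. The library mCherry 2 was kept, and p-values that use it are too small to an unknown degree. Fos stood at 68.4, 199 and 271 CPM (counts scaled to 1e6 of the effective library size) in overlap 1, 2 and 3, at 270.3 CPM in cfos 1, at 22.8 and 25.04 CPM in cfos 2 and cfos 3, and at 11.1 to 30.02 CPM in mCherry. The libraries labelled cfos 2 and cfos 3 were thus within the mCherry range for Fos RNA. All 6 neuron markers (Snap25, Syt1, Rbfox3, Tubb3, Map2 and Elavl4) had counts in all 9 libraries.

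In neurons, kinesins of the families kinesin-1 (Kif5), kinesin-2 (Kif3 and Kif17) and kinesin-3 (Kif1, Kif13 and Kif16b) carry vesicles, mitochondria, receptors and cytoskeletal proteins away from the cell body along axons and dendrites. Another set of kinesins builds the mitotic spindle, moves chromosomes and completes cell division. Adult neurons do not divide, although some spindle kinesins are known to act on the microtubules of growing neurons. The members were therefore described in 4 classes: 15 transport motors, 4 light chains, 12 mitotic motors and 12 others, with Kif16bos apart. The transport motors were the genes of the families named above together with Kif21a and Kif21b, which belong to none of them. Kif28, of the kinesin-3 family, and Kif1bp were placed among the others.

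Transport motors held most of the kinesin reads in every library. Summed over the 15 genes they reached 1864, 1845 and 1539 CPM in overlap 1, 2 and 3, then 3921, 2241 and 2483 CPM in cfos 1, 2 and 3, and 2266, 2293 and 2044 CPM in mCherry 1, 2 and 3. The 12 mitotic motors reached 387, 341 and 395 CPM in overlap, 198, 324 and 331 CPM in cfos, and 449, 510.1 and 524 CPM in mCherry. The transport sum exceeded the mitotic sum 3.90 to 5.41 times in overlap, 7.28 (the averaged cfos 2 and 3) and 19.9 (cfos 1) times in cfos, and 3.90 to 5.04 times in mCherry. The library cfos 1 combined the highest transport sum with the lowest mitotic sum, and the other libraries lay closer together. Levels of 3′ libraries are per transcript end and were not divided by gene length.

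**Figure D1:**
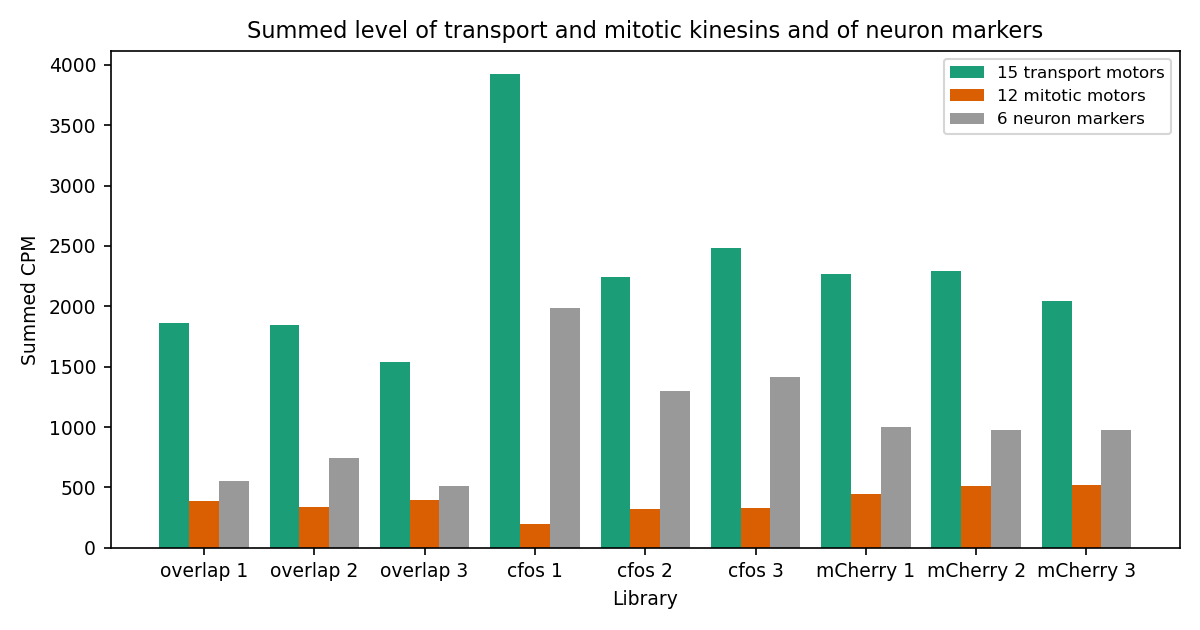
Summed CPM (vertical axis) of the 15 transport motors, the 12 mitotic motors and 6 neuron markers in each of the 9 libraries (horizontal axis). The transport sum is lowest in the overlap libraries (1539 to 1864 CPM) and highest in cfos 1 (3921 CPM). For cfos 2 (2241 CPM) it lies within the mCherry range (2044 to 2293 CPM). The sum of the neuron markers is also lowest in overlap and highest in cfos 1.

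The sum of the neuron markers had the same order of group means as the transport motors. It was 510.4 to 741 CPM in overlap, 1371 and 1984 CPM in cfos, and 975.1 to 997 CPM in mCherry. Snap25 and Syt1 were lower in every overlap library than in every other library. Elavl4 was not, at 118, 41.6 and 111 CPM in overlap against 85.9, 105 and 104 CPM in mCherry. Rbfox3 in overlap 2, at 398 CPM, lay above every mCherry library. Tubb3 in cfos 2 and cfos 3, at 17.6 and 23.4 CPM, lay below every mCherry library. The ratio of transport motors to the sum of the neuron markers was 2.96 ± 0.44 in overlap (SD, n = 3), 1.86 ± 0.16 in cfos (SD, n = 2) and 2.24 ± 0.14 in mCherry (SD, n = 3). Relative to this sum the transport motors were highest in overlap. The ranges of this ratio did not overlap between the groups (2.49 to 3.36 in overlap, 1.75 and 1.98 in cfos, 2.09 to 2.35 in mCherry), which is given as a description with no test. The ratio depends on the markers summed, and other sets were not tried. Syt1 stood at 128, 62.4 and 117.5 CPM in overlap against 376, 324 and 272 CPM in mCherry, a gap that Elavl4 did not show. Markers of oligodendrocytes, the myelin-forming glia, differed between the groups too: all 6 summed to 383 to 1659 CPM in overlap, 4575 and 6377 CPM in cfos and 1234 to 2321 CPM in mCherry, none of them at 0 throughout. In these bulk samples, fewer cells of a type and less RNA per cell cannot be told apart. The part of either marker list in the kinesin levels was not tested.

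A set of 4 transport motors carried 60.9% to 74.9% of the transport sum. Kif1b, which carries synaptic vesicle precursors and mitochondria, had the highest mean. It stood at 332, 428 and 336 CPM in overlap, at 701, 411 and 433 CPM in cfos, against 532, 507 and 404 CPM in mCherry. Kif3a, the kinesin-2 subunit that serves both axonal transport and cilia, stood at 351, 296 and 286 CPM in overlap, at 814, 439 and 483 CPM in cfos, against 360.2, 391 and 427 CPM in mCherry. For both genes cfos 1 was the highest library, and for Kif3a the overlap libraries were the lowest.

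Kif5a, a neuronal heavy chain of conventional kinesin, stood at 303, 366 and 188 CPM in overlap, at 615, 428 and 524 CPM in cfos, against 394, 419.9 and 344 CPM in mCherry. Kif1a, the motor of synaptic vesicle precursors and dense-core vesicles (mm10 chr1:93015464-93101951, minus strand), stood at 150.5, 274 and 142 CPM in overlap, at 808, 339 and 384 CPM in cfos, against 395, 362 and 319 CPM in mCherry. All 3 overlap libraries lay below all other libraries for Kif1a. The mean levels of these 4 genes over the 8 replicates (Kif1b 458, Kif3a 424, Kif5a 389.8 and Kif1a 352 CPM) were closer together than their ranges across libraries, so their order is not resolved.

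The other heavy chains of conventional kinesin were lower. Kif5b, expressed in most cell types, ranged from 50.2 to 146 CPM over the 8 replicates, and the neuronal Kif5c from 32.4 to 163 CPM. Kif17, a kinesin-2 motor of dendrites and cilia, stood at 118, 163 and 271 CPM in overlap, at 175, 212 and 180 CPM in cfos, against 61.1, 145 and 196 CPM in mCherry, and its groups overlapped. Its exons overlap those of Sh2d5 on the same strand. Kif21a, a kinesin-4 that regulates microtubule growth, stood at 82.1, 100.5 and 30.4 CPM in overlap, at 277, 140.0 and 174 CPM in cfos, against 150.1, 146 and 136 CPM in mCherry. All overlap libraries were below all others for Kif21a.

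The light chain gene Klc2 ranged from 22.1 to 159 CPM and Klc1 from 10.1 to 79.5 CPM over the 8 replicates. For Klc1 the 3 overlap libraries, at 10.3, 22.5 and 10.1 CPM, lay below cfos, at 79.5, 38.6 and 43.7 CPM, and below mCherry, at 46.6, 39.3 and 35.2 CPM. Klc3 had 28 counts over the 9 libraries and Klc4 had 9. Klc1 exons overlap Xrcc3 on the opposite strand, and the sources used here do not say whether the counting used strand.

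**Figure D2:**
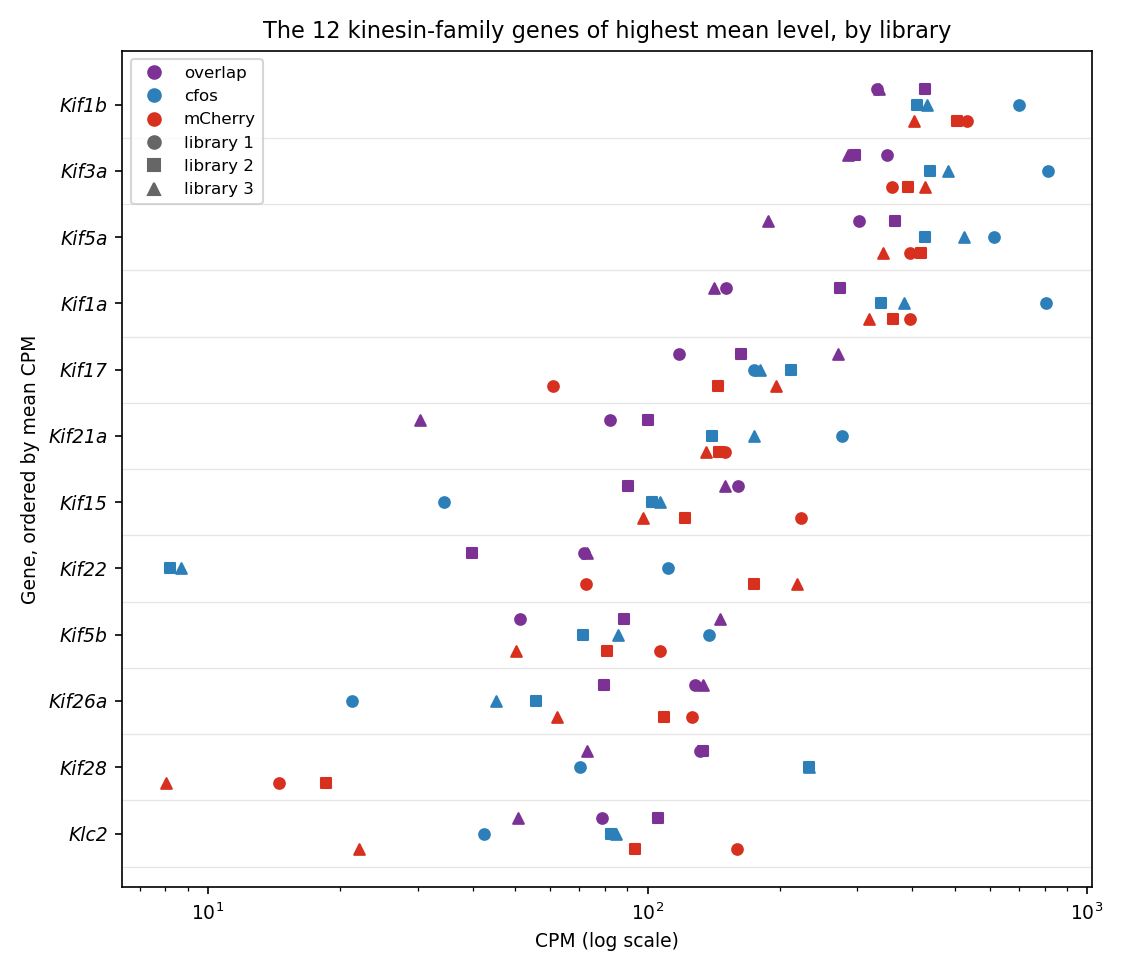
CPM on a log axis (horizontal) for the 12 kinesin-family genes of highest mean level (vertical, ordered by mean over the 8 replicates), with 1 point per library, coloured by group and shaped by library number. Kif1b, Kif3a, Kif5a and Kif1a have the highest means, and the overlap libraries of Kif1a and Kif21a lie left of the other groups.

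Several mitotic motors were read in most libraries. Kif15, which holds spindle poles apart together with Kif11, stood at 161, 90.1 and 149.9 CPM in overlap, at 34.5, 103 and 107 CPM in cfos, against 224, 121 and 97.5 CPM in mCherry. Kif22, a motor that binds chromosomes, stood at 71.8, 39.8 and 72.9 CPM in overlap, at 111, 8.20 and 8.67 CPM in cfos, against 72.5, 175 and 219 CPM in mCherry. Both genes had counts in all 9 libraries, and in neither were all libraries of 1 group apart from both other groups. Kif11 itself, the main spindle-pole motor, had 18, 5 and 0 counts in overlap 1, 2 and 3 and at most 1 count in every other library.

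The remaining mitotic motors were uneven. Kif14, needed for cytokinesis, had 111 CPM in overlap 3 and 5.13 and 5.20 CPM in overlap 1 and 2, 0 to 14.4 CPM in cfos, and 35.2 to 76.6 CPM in mCherry. Kif18b had 15 counts in all, 14 of them in overlap 1. Kif20b had 9 counts over the 9 libraries, Kif4 had 3 and Kif2b had 1. The limit behind a count of 0 (3 counts) was 5.13 to 6.08 CPM in overlap, 3.98 (cfos 1) to 0.963 CPM (cfos 3) in cfos, and 3.01 to 3.47 CPM in mCherry.

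Markers of dividing cells were patchy in the same libraries. Of the 17 genes listed, 3 (Cdk1, Bub1 and Cdc20) had 0 counts in every library, Plk1 had 1 count, Ccnb1 had 7 and Mki67 had 39, of which none was in overlap 2, overlap 3, cfos 1, mCherry 2 or mCherry 3. Only Top2a and Cenpf of the 17 had counts in all 9 libraries. The list summed to 245 to 467 CPM in overlap, up to 538 CPM in cfos and 431 to 497 CPM in mCherry, in which Top2a stood at 91.1 to 222 CPM and Ccnb2 at 0 to 307 CPM. Cenpf reached 158 CPM, Nusap1 109 CPM and Aurkb 92.8 CPM in single libraries. The part of dividing cells in their levels was not tested.

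Over the 8 replicates, the highest value of a gene was set over its lowest for genes above 0 in all of them. The 11 such transport motors ranged from 2.11 (Kif1b) to 38.8 (Kif21b), with a median of 5.02. The 4 such mitotic motors ranged from 6.49 (Kif15) to 61.4 (Kif18a), with a median of 38.0, so the ranges of the classes overlapped. The part of counting error in this spread was not tested. The promoters of both classes are shown because most mitotic motors with a promoter window held a short element there. The cell cycle homology region, TTTGAA, is bound by the MuvB complexes that keep mitotic genes off in resting cells and on in dividing ones, and CCAAT is bound by NF-Y. Both strands were searched in 300 bases around each start site (250 before, 50 after) from RefSeq, build GRCm38.p6, in which 35 members had 39 windows. The element TTTGAA was present in 9 of 11 windows of mitotic motors (81.8%), 1 of 13 windows of transport motors (7.69%) and 17.9% of all 32851 windows. The mitotic windows without it were those of Kif18a and Kif2b, and Kif20a had no window. CCAAT was present in 7 of 11 mitotic windows (63.6%), 4 of 13 transport windows (30.8%) and 37.4% of all windows. The transport count includes overlapping windows of Kif1b. The 2 motifs differ and can share no more than an end base. The median G and C content was 59.7% for mitotic, 69.3% for transport and 52.7% for all windows, so the mitotic windows lay between the others in composition. In the sequences, read 5′ to 3′ along the gene's strand, capitals mark a motif on either strand. Kif3a (chr11:53567119-53567418, plus strand) and Kif1b (chr4:149307649-149307948, minus strand) are 2 of the 4 most abundant transport motors and hold only CCAAT. Kif1a, another of these 4, holds the TTTGAA of the 1 transport window (chr1:93082431-93082730, minus strand). Kif5a, also among the 4, had no window. Kif15 (chr9:122950831-122951130, plus strand) is the mitotic motor of highest mean level and holds 2 matches to TTTGAA, and Kif23 (chr9:61946750-61947049, minus strand) holds both motifs close together.
Kif3a: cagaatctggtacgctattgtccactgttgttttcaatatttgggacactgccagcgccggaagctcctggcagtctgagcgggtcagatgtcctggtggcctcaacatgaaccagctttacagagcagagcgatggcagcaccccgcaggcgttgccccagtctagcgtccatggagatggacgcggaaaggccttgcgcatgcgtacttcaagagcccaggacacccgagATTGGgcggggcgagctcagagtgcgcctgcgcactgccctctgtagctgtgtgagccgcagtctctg
Kif1b: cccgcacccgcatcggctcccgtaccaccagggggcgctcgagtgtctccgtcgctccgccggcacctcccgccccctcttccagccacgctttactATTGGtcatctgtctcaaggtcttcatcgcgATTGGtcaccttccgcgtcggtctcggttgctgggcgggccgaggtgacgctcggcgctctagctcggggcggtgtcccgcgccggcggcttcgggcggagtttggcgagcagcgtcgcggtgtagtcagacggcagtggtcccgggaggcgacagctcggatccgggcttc
Kif15: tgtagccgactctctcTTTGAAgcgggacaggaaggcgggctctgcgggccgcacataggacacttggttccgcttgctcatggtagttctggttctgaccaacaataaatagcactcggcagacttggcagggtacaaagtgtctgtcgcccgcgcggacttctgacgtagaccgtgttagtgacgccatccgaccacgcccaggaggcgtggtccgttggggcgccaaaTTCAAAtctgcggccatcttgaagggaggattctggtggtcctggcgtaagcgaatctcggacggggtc
Kif23: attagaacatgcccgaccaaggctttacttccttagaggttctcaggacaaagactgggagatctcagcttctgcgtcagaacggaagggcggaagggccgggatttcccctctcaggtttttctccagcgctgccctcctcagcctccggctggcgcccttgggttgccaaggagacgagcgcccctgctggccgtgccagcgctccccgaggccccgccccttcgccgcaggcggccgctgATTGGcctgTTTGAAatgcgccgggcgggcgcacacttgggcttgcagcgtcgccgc
A match is a description of letters and not evidence of binding.

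The overlap group was first set against the mCherry group. Kif28, a kinesin-3 family gene, and Kif6, a motor of ependymal cilia in mice, were higher in all overlap libraries, and Kif23, a cytokinesis motor, was lower in all of them. EdgeR called none of these 3 genes over all genes tested, whereas DESeq2 called all 3. The 14 transport motors tested had a median log2 fold change of -0.33, against 0.09 over all genes tested. The sum over the 15 transport motors was lower in every overlap library (1539 to 1864 CPM) than in every mCherry library (2044 to 2293 CPM).

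Kif28 (mm10 chr1:179695297-179745271, minus strand) stood at 132, 133 and 72.9 CPM in overlap and at 14.5, 18.5 and 8.04 CPM in mCherry. The log2 fold change of overlap over mCherry was 3.07 (SE 0.76, adjusted p = 0.254 by edgeR's quasi-likelihood test), and the groups did not overlap. Its exons overlap those of Ahctf1 on the same strand, so reads could be shared. Kif6 (mm10 chr17:49615136-49909847, plus strand) stood at 80.4, 10.4 and 6.08 CPM in overlap and had 0 counts in all 3 mCherry libraries. Overlap was at least 31.9-fold higher, against a floor of 3 counts over the mCherry group (edgeR adjusted p = 0.254), and its exons overlap Gm16554 on the opposite strand. Most of its counts were in overlap 1, with 47, against 6 and 3 in overlap 2 and 3. The 6 ependymal markers, among them Foxj1 with 3 counts over the 9 libraries, summed to 26.3 to 149 CPM in overlap and to 206 to 596 CPM in mCherry, a sum carried mostly by Dnah11 and Ccdc153. Dynlrb2, another of the 6, went the other way, with 51.3 CPM in overlap 1 and 0 CPM in overlap 2 and 3, against 0 to 4.02 CPM in mCherry. The part of ependymal cells in the Kif6 level was not tested.

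Among the mitotic motors, Kif18a, which aligns chromosomes (mm10 chr2:109280738-109341747, plus strand), stood at 68.4, 163 and 52.7 CPM in overlap and at 5.18, 10.4 and 14.1 CPM in mCherry. Its log2 fold change was 3.28 (SE 1.06, edgeR adjusted p = 0.266), and all overlap libraries were above all mCherry libraries. Its exons overlap Mettl15 on the opposite strand. Kif23 (mm10 chr9:61915905-61946774, minus strand) stood at 13.7, 3.46 and 4.05 CPM in overlap and at 63.1, 105 and 94.4 CPM in mCherry. Its log2 fold change was -3.56 (SE 1.22, edgeR adjusted p = 0.271), with all overlap libraries below all mCherry libraries. Kif20a, which also acts in cytokinesis and whose exons overlap Cdc23 on the opposite strand, had 0 counts in overlap and 0, 21 and 62 counts in mCherry 1, 2 and 3. It was at least 16.2-fold lower in overlap against the same floor over the overlap group (edgeR adjusted p = 0.295). Since mCherry 2 may hold reads of mCherry 3 and mCherry 1 had none, this rests on 1 library, and the gene did not pass the count filter without mCherry 2 or without mCherry 3.

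Of the transport motors, Kif1a had the smallest p among the lower genes after Kif23 and Kif20a, with a log2 fold change of -0.89 (SE 0.41, edgeR adjusted p = 0.342), and Kif3a, Kif5a and Kif1b had -0.30 (SE 0.32), -0.40 (SE 0.34) and -0.36 (SE 0.32). Kif13b, a kinesin-3 motor, pointed the other way with 75, 1 and 6 counts in the overlap libraries against 2, 1 and 0 counts in mCherry. Its ratio of overlap to mCherry was 46.6, with a 95% counting interval from 15.4 to 231 (exact binomial), and 75 of its 82 overlap counts were in overlap 1. The 5 mitotic motors below 0 of 7 tested and the 8 of 14 transport motors below 0 stood beside 47.7% of all genes tested. Kif20a, among these 5, passed the filter only through mCherry, so its sign here was fixed by the filter. Without overlap 3 the mitotic median was -1.42, against -0.53 with all libraries, both with Kif20a included.

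EdgeR called 0 of the 29 members tested. Over the table it called 0 of 16410 genes (0.0%), and 15.1%, or 2482 genes, had an unadjusted p under 0.05. The members at that level were 6 of 29 (20.7%): Kif28, Kif6, Kif18a and Kif13b higher, against 10.2% of all genes tested, and Kif23 and Kif20a lower, against 4.95%. Kif20a passed the filter only through mCherry, which fixed its direction. Kif6 had 0 counts in mCherry and passed the filter only through overlap and cfos, so it could not be lower here. Without mCherry 2 the members at that level were 3. All overlap libraries were higher in 3 members (Kif28, Kif6 and Kif18a), against 13.1% of all genes tested, and lower in 5 (Kif1a, Kif3a, Kif21a, Klc1 and Kif23), against 9.24%. DESeq2 called 960 genes, 944 of them among the 16410 tested by edgeR. Of the 29 members tested it called 5 (Kif28, Kif6, Kif18a, Kif13b and Kif23). Their DESeq2 adjusted p was 0.00312, 0.00328, 0.0196, 0.0328 and 0.0268 in that order, within ranges over the alternatives that start at these values and end at 0.754 for each.

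**Figure D3:**
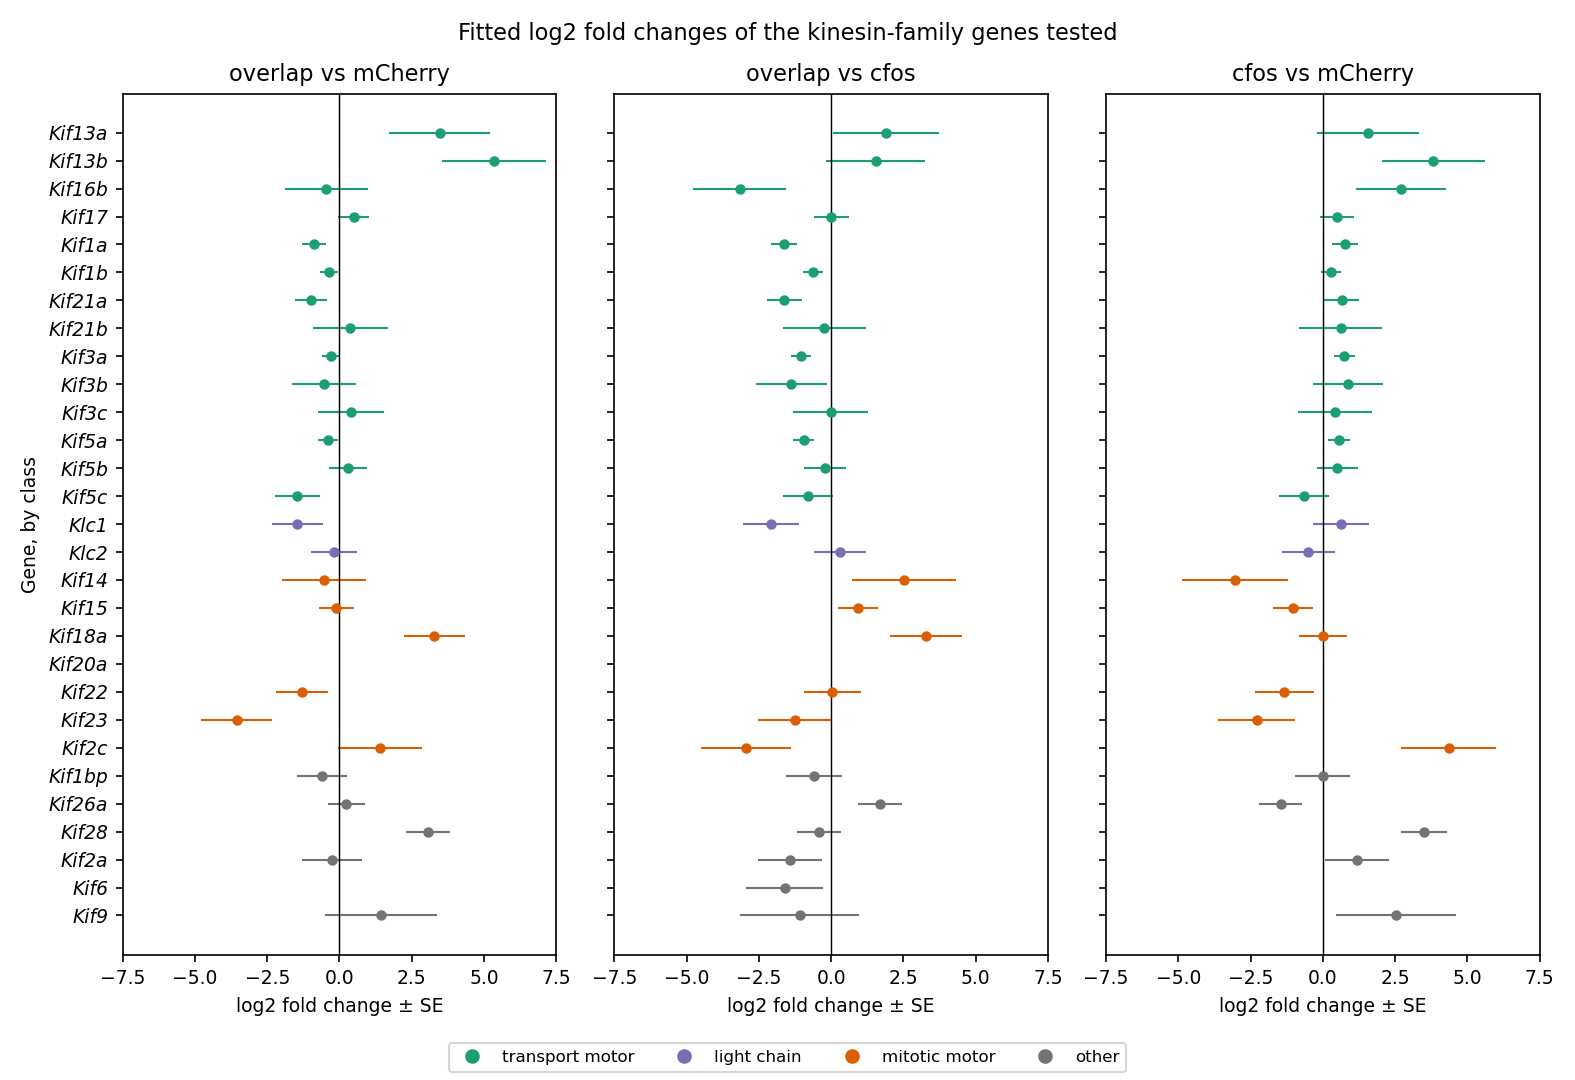
Fitted log2 fold change with its standard error (horizontal axis) of the kinesin-family genes tested (vertical axis, by class) in the 3 comparisons. Values for a group with 0 counts (Kif20a throughout, Kif6 against mCherry) are left out, and most transport motors lie left of 0 in overlap versus cfos.

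The overlap group was next set against the cfos group. The abundant transport motors Kif1a, Kif3a, Kif21a and Kif5a were lower in every overlap library than in every cfos library. Of the 14 transport motors tested, 11 had log2 fold changes below 0, with a median of -0.72, against 45.7% of genes below 0 and a median of 0.11 over all genes tested. Of the 6 mitotic motors tested that had counts in either group, 2 lay below 0 and 4 above, with a median of 0.49, chosen after seeing the data. Kif20a, at 0 in both groups, passed the filter only through mCherry, and counting it at 0 gave 0.04. EdgeR called no member, and DESeq2 called Kif18a.

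The log2 fold change of Kif1a was -1.64 (SE 0.45, edgeR adjusted p = 0.356), that of Kif3a -1.04 (SE 0.35, adjusted p = 0.369), that of Kif21a -1.62 (SE 0.61, adjusted p = 0.394) and that of Kif5a -0.95 (SE 0.37, adjusted p = 0.404). Kif1b had -0.63 (SE 0.35) and its groups overlapped, with overlap 2 at 428 CPM and the averaged cfos 2 and 3 at 424 CPM. The library cfos 1 held the highest value of Kif1a, Kif3a, Kif5a, Kif1b and Kif21a. Without it the transport median was -0.13 and the log2 fold change of Kif1a was -0.95, that of Kif3a -0.57 and that of Kif21a -1.17. Without overlap 1 the transport median was -1.14. The sum of the neuron markers given above was lower in overlap as well, at 510.4 to 741 CPM against 1371 and 1984 CPM in cfos. The ratio of transport motors to this sum was higher in overlap, with the limit given above that it depends on the markers summed.

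Kif18a and Kif26a pointed the other way. Kif18a stood at 52.7 to 163 CPM in overlap and at 2.65, 17.0 and 15.7 CPM in cfos, with a log2 fold change of 3.28 (SE 1.24, edgeR adjusted p = 0.395). DESeq2 gave an adjusted p of 0.0281, the lowest of a range of 0.0281 to 0.599 over the alternatives. Kif26a, a kinesin without motor activity that regulates enteric neurons in mice, stood at 128, 79.7 and 134 CPM in overlap and at 21.2, 55.6 and 45.3 CPM in cfos. Its log2 fold change was 1.69 (SE 0.76, edgeR adjusted p = 0.423), and the groups did not overlap. Kif14 had 2.51 (SE 1.80, adjusted p = 0.623), but -0.41 without overlap 3, which held 55 of its 61 overlap counts. Klc1, the light chain, had -2.07 (SE 0.97), with all overlap libraries below all cfos libraries.

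In this comparison 6 of 29 members (20.7%) had an unadjusted p under 0.05, against 11.8% (1938) of all genes tested. The 2 higher were Kif18a and Kif26a, against 8.57% of genes, and the 4 lower were Kif1a, Kif3a, Kif21a and Kif5a, against 3.24%. EdgeR called 0 members and 0 of 16410 genes (0.0%). Without cfos 1 the 6 members became 2. All overlap libraries were lower in 8 members (27.6%), of which 6 were transport motors, against 12.2% of genes, and higher in 2 (6.90%), against 13.5%. DESeq2 called 932 genes, 908 of them among the 16410 tested by edgeR. Of the 29 members tested it called 1, Kif18a.

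The cfos group was last set against the mCherry group. Kif6, Kif28 and the spindle motor Kif2c, which depolymerises microtubules, stood higher in cfos, and Kif23, Kif26a and Kif20a lower. The transport motors lay above 0 in 13 of 14 genes tested, against 8406 of all 16410 genes tested. Their median log2 fold change was 0.63, against 0.06 over all genes tested, and -0.06 without cfos 1. EdgeR called no member, and DESeq2 called Kif6 and Kif28.

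Kif6 stood at 67.6, 142 and 126 CPM in cfos 1, 2 and 3 and had 0 counts in every mCherry library. Cfos was at least 110-fold higher, against a floor of 3 counts over the mCherry group (edgeR adjusted p = 0.180). Ependymal markers summed to 34.5 and 122 CPM in cfos and to 206 to 596 CPM in mCherry. Rarres2 among them went the other way in cfos 1, with 33.1 CPM there against 1.04 to 4.02 CPM in mCherry, and Tmem212 had 8 counts, all in cfos 2 and cfos 3. Their part in the Kif6 level was not tested here either. Kif28 stood at 70.2, 232 and 232 CPM in cfos, against 8.04 to 18.5 CPM in mCherry, with a log2 fold change of 3.49 (SE 0.80, edgeR adjusted p = 0.181). Both were above every mCherry library in cfos 1 as well as in cfos 2 and 3. Without cfos 1 the value of Kif28 was 3.91 and with neither cfos 2 nor cfos 3 it was 2.06.

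Kif2c (mm10 chr4:117159639-117182639, minus strand) stood at 10.6 CPM in cfos 1, at 183 and 182 CPM in cfos 2 and cfos 3, and at 7.25, 6.94 and 0 CPM in mCherry. Its log2 fold change was 4.35 (SE 1.65, edgeR adjusted p = 0.261), and 0.86 with neither cfos 2 nor cfos 3. Kif23 stood at 33.1, 1.76 and 2.25 CPM in cfos, against 63.1 to 105 CPM in mCherry, with a log2 fold change of -2.29 (SE 1.33, edgeR adjusted p = 0.399), which was -5.48 without cfos 1. Kif26a had -1.46 (SE 0.75, edgeR adjusted p = 0.337), and -2.50 with neither cfos 2 nor cfos 3. Kif20a had 0 counts in cfos and was at least 31.0-fold lower there (edgeR adjusted p = 0.268), again on the counts of mCherry 2 and mCherry 3. The mitotic median was -1.34, and -2.31 without cfos 1 and -2.12 with neither cfos 2 nor cfos 3. These medians include Kif20a, whose sign was fixed because it passed the filter only through mCherry. The cfos values stand on 1 library and 1 averaged pair, which lay far apart for Kif22, Kif23 and Kif2c.

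**Figure D4:**
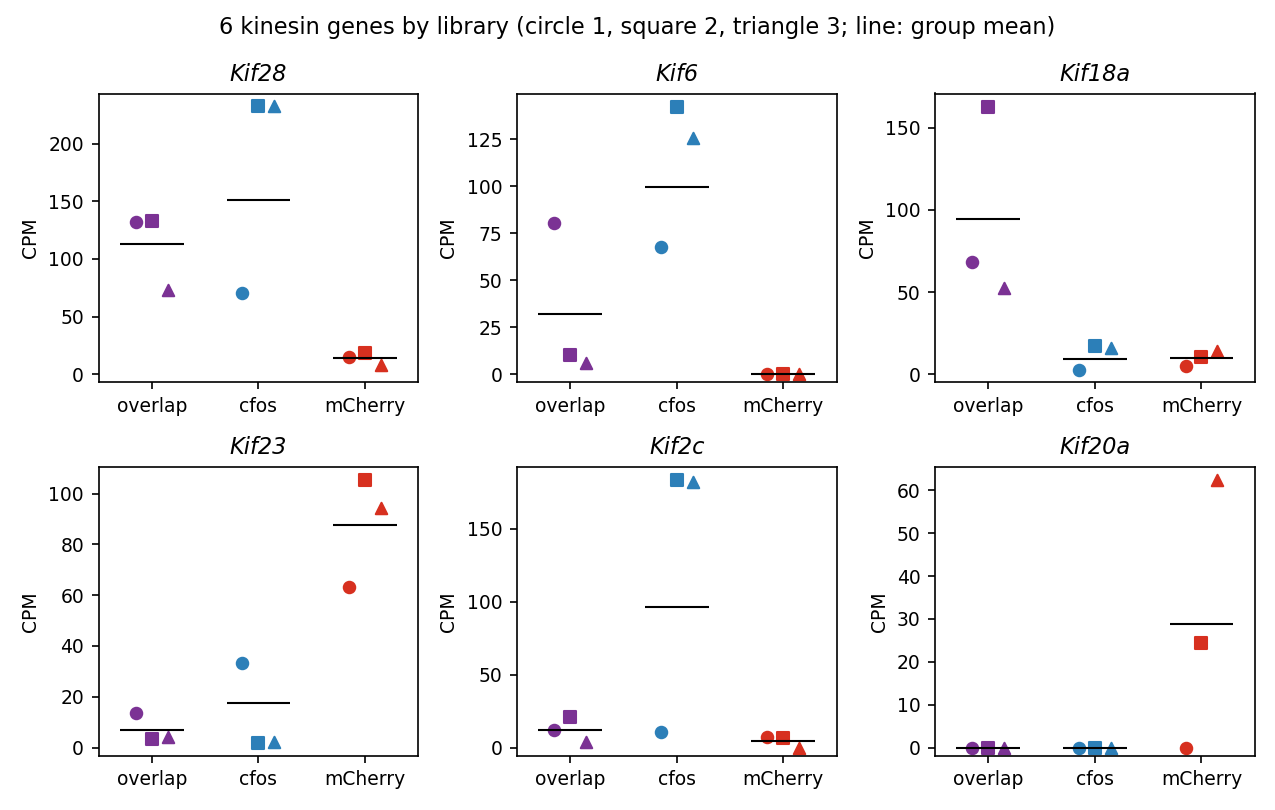
CPM (vertical axis) of Kif28, Kif6, Kif18a, Kif23, Kif2c and Kif20a in each library, by group (horizontal axis), with a line at the group mean, in which cfos 2 and cfos 3 count as 1. Kif6 is at 0 in all 3 mCherry libraries, Kif20a is at 0 in overlap and cfos, and for Kif2c cfos 1 lies apart from cfos 2 and cfos 3.

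The transport values of this comparison depended on cfos 1. The log2 fold changes of Kif1a, Kif3a, Kif5a and Kif1b were 0.75 (SE 0.45), 0.74 (SE 0.35), 0.55 (SE 0.37) and 0.27 (SE 0.35). Without cfos 1, Kif1a turned to -0.13 and Kif1b to -0.34. Of the 29 members, 4 had an unadjusted p under 0.05 (13.8%), against 17.6% (2894) of all genes tested, and 2 without mCherry 2. The 3 higher were Kif6, Kif28 and Kif2c, against 7.57% of genes. Kif6 had 0 counts in mCherry and passed the filter only through cfos and overlap, which fixed its direction. The 1 lower was Kif20a, which passed the filter only through mCherry, against 10.1%. EdgeR called 0 members and 0 of 16410 genes (0.0%). DESeq2 called 1649 genes, 1623 of them among the 16410 tested by edgeR. Of the 29 members tested it called 2 (Kif6 and Kif28). Cfos was higher throughout in 8 members (27.6%; Kif6, Kif28, Kif2c, Kif3a, Kif13b, Kif5a, Kif21a and Kif2a), against 18.3% of genes, and lower throughout in 3 (10.3%; Kif26a, Kif23 and Kif14), against 14.4%. The 3 comparisons share libraries, so their values are not independent of each other.

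Motors work with cargo adaptors and against dynein, the motor that walks back to the cell body. Of 20 kinesin partners and adaptors listed, all were tested, and edgeR and DESeq2 called 0 in each comparison. Over all 16410 genes tested, edgeR called 0 as well. DESeq2 called 944 of them in overlap versus mCherry, 908 in overlap versus cfos and 1623 in cfos versus mCherry. By edgeR, 2 partners had an unadjusted p under 0.05 (Hap1 and Rhot2, higher in cfos versus mCherry, against 7.57% of genes). In either direction, 15.1%, 11.8% and 17.6% of all genes tested had such a p in the 3 comparisons, in the same order. In overlap versus cfos 15 of 20 lay below 0, with a median of -0.55, against 45.7% and a median of 0.11 over all genes tested. The scaffold Spag9 averaged 180 ± 27.9 CPM in overlap (SD, n = 3) and 362 ± 168 CPM in cfos (SD, n = 2), and Hap1, which links huntingtin to motors, 201 ± 47.9 CPM in overlap and 368 ± 203 CPM in cfos. In overlap versus mCherry 11 of 20 lay below 0 (median -0.18), against 47.7% of all genes tested (median 0.09). The mitochondrial adaptor Trak2 averaged 1.15 ± 0.99 CPM in overlap and 13.2 ± 5.83 CPM in mCherry (SD, n = 3 each). In cfos versus mCherry 7 of 20 lay below 0 (median 0.53), against 47.5% of all genes tested (median 0.06). In that comparison Hap1 had a log2 fold change of 1.57 (SE 0.47, edgeR adjusted p = 0.235).

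Of 22 dynein and dynactin genes listed, 19 were tested, and edgeR and DESeq2 called 0 in each comparison, beside the calls over all genes given for the partners. By edgeR, 2 had an unadjusted p under 0.05. Dctn6 was higher in overlap versus mCherry, against 10.2% of genes, and Dync1i2 lower in overlap versus cfos, against 3.24%. Those below 0 numbered 13 of 19 in overlap versus cfos (median -0.80), 9 of 19 in overlap versus mCherry (median 0.06) and 7 of 19 in cfos versus mCherry (median 0.39). The shares of all genes tested below 0 were 45.7%, 47.7% and 47.5% in the same order. The intermediate chain gene Dync1i2 averaged 176 ± 27.4 CPM in overlap (SD, n = 3) and 331 ± 105 CPM in cfos (SD, n = 2), with a log2 fold change of -0.92 (SE 0.41, edgeR adjusted p = 0.423). The dynactin subunit gene Dctn6 averaged 29.0 ± 20.4 CPM in overlap and 4.31 ± 1.39 CPM in mCherry (SD, n = 3 each), with a log2 fold change of 2.74 (SE 1.16, edgeR adjusted p = 0.310).

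The other members were read at low levels or unevenly. Counts were present in all 9 libraries for 22 of the 44 members, and 29 passed the count filter: 14 transport motors, 2 light chains, 7 mitotic motors and 6 others. Kif12 and Kif16bos had 0 counts in all libraries, and 8 members in all had under 10 counts. Kif27, a ciliary kinesin, had 14 counts, all in overlap 3. Kif1c had 98 counts, 42 of them in overlap 1. Kif16b, an endosomal motor, stood at 11.97, 8.66 and 0 CPM in overlap, at 19.9, 108 and 109 CPM in cfos, against 21.7, 5.78 and 2.01 CPM in mCherry. Kif21b ranged from 3.72 to 144 CPM and Kif3c from 4.05 to 88.9 CPM over the 8 replicates. Kif3b, the partner of Kif3a, ranged from 8.10 to 54.3 CPM, the depolymerase gene Kif2a from 6.08 to 38.4 CPM, and Kif1bp from 22.2 to 55.7 CPM. Kif9, of motile cilia, ranged from 0 to 29.2 CPM, Kif13a from 0 to 27.7 CPM and Kif13b from 0 to 128 CPM. Kif26b had 71 counts, Kif19a, which sets the length of cilia, had 17, Kif7, of the hedgehog pathway, had 5 and Kif24, of cilia, had 1.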

How the data were processed

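The values were gene counts, deposited without normalization as 1 table of 9 libraries. The submitters' processing notes name Trim Galore, STAR, featureCounts, UMI-tools and mm10. The sources used here give no versions, annotation or strand setting and do not say how molecular identifiers were used. Intervals and floors therefore cover only counting error. Coordinates and exon overlaps came from GENCODE M21 (same build) and promoters from RefSeq (GRCm38.p6).

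The rounded mean of cfos 2 and cfos 3 was used as 1 replicate (chi-square per gene of 0.824, where every other pair of libraries had 9.08 to 58.5). In R 4.3.3 with edgeR 4.0.16, genes were filtered by filterByExpr (minimum count 10), which left 16410, scaled by TMM, and fitted in 1 robust quasi-likelihood model of all 3 groups without covariates. Tests were two-sided with Benjamini-Hochberg adjustment over all genes at 0.05. SE is the log2 fold change over the square root of F. CPM are counts over total counts times the TMM factor. The script was tested on simulated data with less spread between libraries than these data, which does not show the power of the tests here.

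The members, classes and lists were chosen with earlier results of these data known. The rule for named genes took the 12 members of highest mean CPM and, in each comparison, the 3 members of smallest p in each direction. The alternatives were RLE factors, no or a stricter filter, DESeq2 1.42.0, all 9 columns, a replicate block and leaving out each replicate.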

Additional observations from a re-analysis of the deposited data

Results flagged for a closer look

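A pseudogene left out of the members, Kif4-ps, held reads in every library, above what a count of 0 allows. It had 278 counts over the 9 libraries: 15, 10 and 17 in overlap, 14, 22 and 45 in cfos, and 12, 54 and 89 in mCherry. Kif4 itself had 3 counts in all, 1 in overlap 2 and 2 in cfos 3. Reads of such a copy and of its parent gene could be assigned to either by the counting, and this was not tested. The other pseudogene left out, Kif22-ps, had 1 count.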

How the results depend on the processing

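No member was called by edgeR in any comparison when 1 replicate was left out, with RLE factors, with a stricter filter or with the replicate block. The genes called over the table were 0 throughout when 1 replicate was left out. Members called numbered 5 by DESeq2 and 1 without a filter in overlap versus mCherry, 1 by DESeq2 in overlap versus cfos, and 2 by DESeq2, 2 without a filter and 2 with all 9 columns in cfos versus mCherry. Genes called over the table numbered 960 by DESeq2 and 557 without a filter in overlap versus mCherry. In overlap versus cfos they numbered 932 by DESeq2, 224 without a filter and 15 with all 9 columns. In cfos versus mCherry they numbered 1649 by DESeq2, 1333 without a filter, 247 with all 9 columns, 1 with RLE factors and 1 with the stricter filter. Members at an unadjusted p under 0.05 numbered 3 to 8, 2 to 7 and 2 to 5 when 1 replicate was left out in overlap versus mCherry, overlap versus cfos and cfos versus mCherry, in this order. In cfos versus mCherry they were 8 by DESeq2 and 2 with the stricter filter.

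Leaving out 1 replicate moved the transport median between -0.52 and -0.15 in overlap versus mCherry and between -1.14 and -0.13 in overlap versus cfos. In cfos versus mCherry it moved between -0.061 and 0.74. The same omissions moved the mitotic median between -1.42 and 0.002 in overlap versus mCherry, -0.078 and 1.61 in overlap versus cfos, and -2.31 and -1.14 in cfos versus mCherry. With Kif20a left out, which was chosen after seeing the data, the mitotic median in overlap versus cfos was 0.49. It was 0.91 with the stricter filter, 0.65 with all 9 columns and 0.93 with the replicate block. Of 27 gene values, 24 kept their sign in every alternative that gave a value, which is not a measure of stability. The 24 include Kif6 and Kif20a against mCherry, where 1 group had 0 counts and no alternative could reverse the sign. Most of the 27 were chosen for a small p in these same data. The values that changed sign were Kif14 in overlap versus cfos (-0.41 to 7.87 when 1 replicate was left out) and, in cfos versus mCherry, Kif1a (-0.13 to 0.88) and Kif1b (-0.34 to 0.37, and -0.028 without a filter). The cause was not tested. RLE factors shifted the log2 fold changes of all genes by a median of -0.11, 0.07 and -0.18 in the 3 comparisons.

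Same-numbered libraries did not deviate together (correlations across genes of -0.048 to 0.069 in 9 pairs), so the replicate numbers were not taken as pairing. With the replicate block on all 9 columns, edgeR called 0 genes in each comparison and the transport medians were -0.41, -0.58 and 0.43. Of the 44 members, 15 did not pass the count filter, among them 5 of 12 mitotic motors, and the part of depth in this was not tested.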

Other observations

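Kinesin genes outside the rule were read at these levels. Kifc2, a kinesin of neurons, had counts in all 9 libraries, at 30.8, 15.6 and 12.2 CPM in overlap, 75.5, 61.5 and 70.0 CPM in cfos, and 61.1, 52.1 and 29.1 CPM in mCherry. Kifap3, the accessory subunit of the Kif3 complex, stood at 59.9, 13.9 and 58.7 CPM in overlap, 68.9, 67.3 and 61.0 CPM in cfos, and 163, 22.0 and 30.1 CPM in mCherry. Among mitotic genes, Kifc1 had 2 counts in all, and Cenpe, the kinetochore kinesin, had 70 and was at 0 in mCherry 2 and mCherry 3. Kifc5b had 99 counts in 3 libraries, at 22.2 CPM in overlap 1, 48.6 CPM in overlap 3 and 64.2 CPM in mCherry 1.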
